A study of Mus musculus with 10 samples.

Results

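The genes described here are 10 p53 target and growth arrest genes of the mouse: Cdkn1a, Mdm2, Ccng1, Bax, Bbc3, Trp53inp1, Gadd45a, Gadd45b, Gadd45g and Sesn2. They were listed by name, and each was read from its brightest probe set that carried a single gene symbol. Of the 10 listed genes, 8 were measured among the 18826 genes tested. The gene table used here gave no probe set for Bax, and the only probe set of Gadd45a carried a second symbol as well, so neither gene was analysed here. Each of the 8 measured genes had 1 such probe set, and all 8 lay above the 25th percentile of the array on all 10 arrays.

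p53 is a transcription factor that is stabilised when DNA is damaged or a cell is otherwise stressed, and it then switches on genes that halt the cell cycle, repair DNA or start apoptosis. Mdm2 is both a target of p53 and the ubiquitin ligase that degrades it, so the pathway contains a feedback loop. Several targets are also switched on without p53, by glucocorticoids, mitogens, inflammatory signals or the integrated stress response, and the Gadd45 family is known for such inputs.

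RNA came from salivary glands of female NOD/shiLtJ mice, a strain in which autoimmunity against pancreatic islets leads to type 1 diabetes in many animals and in which lymphocytes also infiltrate the salivary glands. The groups were 21-week-old mice with type 1 diabetes (n = 4), 21-week-old mice without it (n = 3) and 6-week-old mice without it (n = 3). The source names state type 1 diabetes for the first group and give only age and strain for the others, here called nondiabetic. All mice shared the strain and sex, and no group received a treatment named in the labels. Dispase II and collagenase IV were used to free the cells from the cut glands, and the cells were filtered before RNA extraction, so every value describes dissociated cells and not intact tissue. The labels number the mice separately but do not say which salivary gland was taken or whether glands were pooled. In such bulk samples, fewer cells of a type and less RNA per cell cannot be told apart.

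The acinar markers Aqp5, a water channel, and Bhlha15, a secretory transcription factor, were present on every array, with a mean log2 intensity of 7.69 to 8.40 in diabetic mice, 8.16 to 8.43 in nondiabetic 21-week-old mice and 8.32 to 8.42 in 6-week-old mice. Markers of parts of the gland differed with the groups, while Aqp5 and Bhlha15 did not pass the test in any comparison. The mean of 6 markers of parotid-type acinar cells was 10.28 to 10.74 in diabetic mice, against 4.28 to 6.68 in nondiabetic 21-week-old mice and 4.85 to 8.66 in 6-week-old mice. The mean of 7 measured markers, of 9 listed, of the granular convoluted tubule, a duct segment of the submandibular gland, was 4.54 to 6.46 in diabetic mice, against 8.97 to 9.52 in nondiabetic 21-week-old mice and 7.60 to 8.15 in 6-week-old mice. Of the markers tested between diabetic and nondiabetic mice at 21 weeks, 6 of 6 parotid-type markers rose and 7 of 7 tubule markers fell in limma's test. Of all genes, 1.10% rose and 0.34% fell. The array means of 4 further lists were higher in every diabetic mouse than in every nondiabetic 21-week-old mouse. That of 7 macrophage markers was 5.77 to 6.58 in diabetic mice, against 5.12 to 5.29 in nondiabetic 21-week-old mice. For 4 myoepithelial markers it was 5.22 to 5.72 in diabetic mice, against 3.87 to 4.86 in nondiabetic mice of that age, and for 5 adipocyte markers 4.45 to 4.67 in diabetic mice, against 3.71 to 4.19 in nondiabetic mice. For 5 fibroblast markers it was 6.38 to 6.64 in diabetic mice, against 5.27 to 6.13 in nondiabetic mice. In 6-week-old mice the means were 4.96 to 5.66 for macrophage, 4.63 to 4.89 for myoepithelial and 4.03 to 4.18 for adipocyte markers. For fibroblast markers the 6-week-old mice lay at 5.83 to 7.42 and so overlapped with the diabetic mice. In limma's test at 21 weeks, 2 macrophage markers (Cd68 and Mrc1), 2 myoepithelial markers (Acta2 and Myh11) and 2 adipocyte markers (Fabp4 and Retn) rose. Of 6 duct markers, 2 (Scnn1b and Ascl3) fell. None of the 5 fibroblast markers passed, 2 of them with an unadjusted p under 0.05 (15.8% of all genes). The part of these shifts in the values that follow was not tested.

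Individual arrays stood apart as well. Diabetic mouse 4 had a mean of 5.61 over 7 measured T cell markers (of 8 listed), against 4.36 to 4.43 in the other 3 diabetic mice, 4.05 to 4.78 in nondiabetic 21-week-old mice and 3.49 to 3.78 in 6-week-old mice. Its mean over 5 measured B cell markers (of 6 listed) was 5.73, which was the highest of the 10 arrays. No measured T or B cell marker lay at or below the 25th percentile on all arrays of a group. The array of nondiabetic 21-week-old mouse 3 correlated with the other 9 arrays at 0.917 to 0.961, against 0.934 to 0.983 among those 9. Its median log2 intensity was 3.53, against 3.62 to 3.69 on the others. Its 25th percentile was 2.70, against 2.58 to 2.66. The differences that moved most without either array are given without it as well.

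The promoters of 4 of the genes are shown because their letters separate the genes by motif. Promoter windows of the 250 bases before each annotated start were read from RefSeq (GRCm38.p6), which held 9 of the 10 genes with 12 start sites; Trp53inp1 was not among them. A p53 response element, here a pair of adjacent p53 decamers with at most 1 mismatch, was found by name in 25 of 32851 promoters (0.0761%). Of the listed genes, Cdkn1a at its upstream start and Ccng1 held one. With no mismatch allowed the element stood in 3 promoters (0.00913%) and in no window of the listed genes. The element of Cdkn1a lay 51 bases before that start and 2841 bases before the downstream start, and the element of Ccng1 lay 195 bases before its start. A TATA box (TATAAA) together with an E box (CACGTG), each searched on both strands, stood in 0.517% of promoters, and among the listed genes in Gadd45b and Gadd45g. Neither this pair nor the p53 element with a mismatch was among the motifs set in advance, so their shares are a description and not a test. In Gadd45b the TATA box began 46 bases and the E box 185 bases before the start, and in Gadd45g the TATA box began 27 bases and the E box 142 bases before it. These are matches of letters within this window and not sites of binding. Capitals mark the p53 element in the Cdkn1a and Ccng1 windows and the TATA and E boxes in the Gadd45b and Gadd45g windows, each read 5′ to 3′ on the strand of its gene:
Cdkn1a upstream start, chr17:29090729-29090978, plus strand: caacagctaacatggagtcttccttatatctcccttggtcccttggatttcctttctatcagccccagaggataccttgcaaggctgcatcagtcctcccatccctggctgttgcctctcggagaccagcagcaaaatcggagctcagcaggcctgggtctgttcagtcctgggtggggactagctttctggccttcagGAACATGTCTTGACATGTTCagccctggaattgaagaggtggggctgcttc
Ccng1, chr11:40755287-40755536, minus strand: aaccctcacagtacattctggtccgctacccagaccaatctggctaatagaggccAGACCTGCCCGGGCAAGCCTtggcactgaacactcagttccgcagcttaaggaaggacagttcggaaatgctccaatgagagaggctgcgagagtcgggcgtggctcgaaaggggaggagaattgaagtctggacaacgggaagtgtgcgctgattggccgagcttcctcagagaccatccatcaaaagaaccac
Gadd45b, chr10:80929841-80930090, plus strand: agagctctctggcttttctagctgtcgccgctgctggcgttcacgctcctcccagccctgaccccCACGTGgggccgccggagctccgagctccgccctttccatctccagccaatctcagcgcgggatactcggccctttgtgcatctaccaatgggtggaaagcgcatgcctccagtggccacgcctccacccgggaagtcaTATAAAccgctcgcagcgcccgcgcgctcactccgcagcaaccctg
Gadd45g, chr13:51846425-51846674, plus strand: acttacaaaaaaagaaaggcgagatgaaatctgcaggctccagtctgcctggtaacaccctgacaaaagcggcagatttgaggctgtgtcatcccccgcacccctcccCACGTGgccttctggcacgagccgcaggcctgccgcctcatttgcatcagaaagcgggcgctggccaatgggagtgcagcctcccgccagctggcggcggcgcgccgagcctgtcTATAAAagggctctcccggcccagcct

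The other motifs were less selective. The GC box (GGGCGG) was found in 32.7% of promoters, the cyclic AMP response element (TGACGTCA) in 1.55%, the AP-1 motif (TGANTCA) in 6.75%, the TATA box in 12.4% and the E box in 6.02%. Single p53 decamers stood in 7.13% of promoters, and among the listed genes in Cdkn1a, Mdm2, Ccng1, Bax and Gadd45a. Neither the cyclic AMP response element nor the AP-1 motif was found in a window of the listed genes.

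No measured gene of the list passed the threshold of an adjusted p of 0.05 in any of the 3 comparisons. Between diabetic and nondiabetic mice at 21 weeks, 0 of 8 passed in limma's test, where 1.44% of all genes did, and 3 of 8 had an unadjusted p under 0.05, against 15.8% of all genes. The groups did not overlap for 3 of 8 genes, all higher in diabetic mice, against 9.11% of all genes that were higher without overlap, 4.98% that were lower and 14.1% in either direction. This holds for log2 intensity, while as percentiles of the array Trp53inp1 and Gadd45b overlapped. The mean was higher in diabetic mice for 6 of 8 genes, against 56% of all genes, and the median log2 difference was 0.46 over the 8 genes and 0.03 over all genes. The 3 groups of arrays were fitted together, and differences are given on the log2 scale with their standard errors and 95% intervals.

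**Figure D1:**
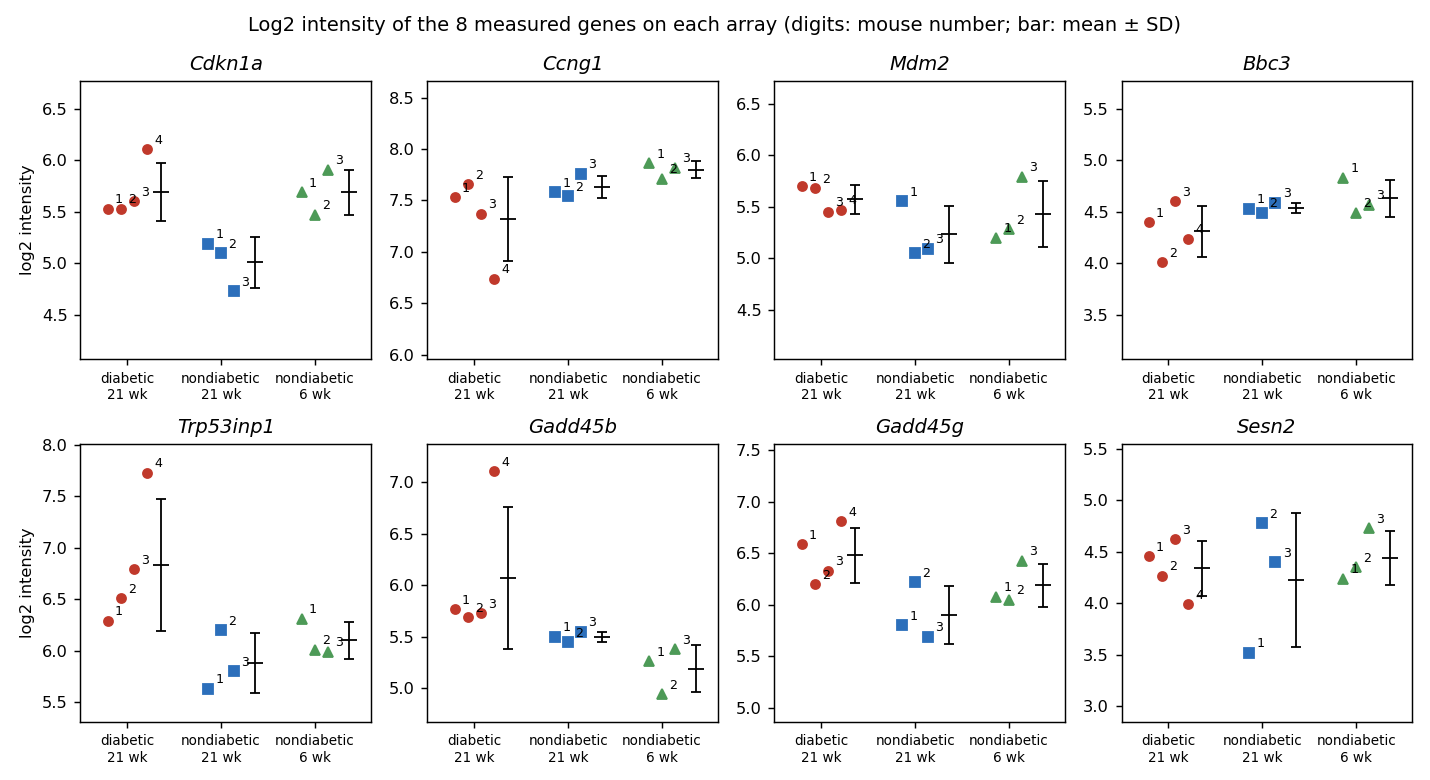
Log2 intensity (vertical axis) of the 8 measured p53 target and growth arrest genes on each array, in diabetic 21-week-old, nondiabetic 21-week-old and nondiabetic 6-week-old mice; digits are mouse numbers and bars show the mean ± SD. Cdkn1a was lowest in the 3 nondiabetic 21-week-old mice (4.73 to 5.19), and diabetic mouse 4 was the highest of its group for Cdkn1a (6.11), Trp53inp1 (7.73), Gadd45b (7.11) and Gadd45g (6.81) and the lowest for Ccng1 (6.74) and Sesn2 (3.99).

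Cdkn1a encodes p21, the inhibitor of cyclin-dependent kinases through which p53 halts the cell cycle. Its log2 intensity was 5.53, 5.53, 5.60 and 6.11 in diabetic mice, 5.19, 5.10 and 4.73 in nondiabetic 21-week-old mice, and 5.69, 5.47 and 5.91 in nondiabetic 6-week-old mice. The nondiabetic 21-week-old mice were the lowest of the 10, with a gap of 0.34 to the diabetic mice and of 0.27 to the 6-week-old mice, and the diabetic and 6-week-old mice overlapped. The difference between diabetic and nondiabetic mice at 21 weeks was 0.69 ± 0.18 (SE), or 1.61-fold, with a 95% interval of 0.30 to 1.07 and an adjusted p of 0.0805 (limma). By size of p it ranked 467 among the 18826 genes. It was 0.55 without nondiabetic mouse 3 (adjusted p = 0.265) and 0.55 without diabetic mouse 4, and 0.41 without both. Between nondiabetic mice of 21 and 6 weeks the difference was -0.68 ± 0.19 (SE), with an interval of -1.09 to -0.27 and an adjusted p of 0.481 (limma), although by size of p it ranked 123. It was -0.54 without nondiabetic 21-week-old mouse 3 (adjusted p = 0.647). Both comparisons share the nondiabetic 21-week-old mice. Between diabetic 21-week-old and nondiabetic 6-week-old mice the difference was 0.01 ± 0.18 (SE), with an interval of -0.38 to 0.39 (adjusted p = 0.991, limma), which leaves room for a change of up to about that size in either direction.

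Ccng1 encodes cyclin G1, a p53 target that recruits a phosphatase to Mdm2. The log2 intensity of Ccng1 was 7.53, 7.66, 7.37 and 6.74 in diabetic mice, 7.58, 7.54 and 7.76 in nondiabetic 21-week-old mice, and 7.86, 7.71 and 7.82 in 6-week-old mice. All diabetic mice lay below all 6-week-old mice, by a gap of 0.05, while the diabetic and nondiabetic 21-week-old mice overlapped. Diabetic and nondiabetic mice at 21 weeks differed by -0.30 ± 0.19 (SE), with an interval of -0.71 to 0.10 and an adjusted p of 0.455 (limma). Against 6-week-old mice the diabetic mice differed by -0.47 ± 0.19 (SE), with an interval of -0.88 to -0.07 (adjusted p = 0.255, limma). These differences were -0.11 and -0.28 without diabetic mouse 4, and that at 21 weeks was -0.04 without this array and that of nondiabetic mouse 3. Nondiabetic mice of 21 and 6 weeks differed by -0.17 ± 0.20 (SE, adjusted p = 0.866, limma).

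Mdm2, which ubiquitinates p53, had a log2 intensity of 5.70, 5.68, 5.45 and 5.47 in diabetic mice, 5.55, 5.05 and 5.09 in nondiabetic 21-week-old mice, and 5.20, 5.28 and 5.79 in 6-week-old mice. All 3 groups overlapped. The differences were 0.35 ± 0.17 (SE) between diabetic and nondiabetic mice at 21 weeks, with an interval of -0.03 to 0.72, and -0.20 ± 0.18 (SE) between nondiabetic mice of 21 and 6 weeks. The adjusted p was 0.351 in the diabetes comparison, 0.83 in the age comparison and 0.743 between diabetic and 6-week-old mice, which differed by 0.15 ± 0.17 (SE, limma). With 1 array left out, the age difference lay between -0.36 (without nondiabetic 21-week-old mouse 1) and -0.01 (without 6-week-old mouse 3), and the difference between diabetic and 6-week-old mice between 0.03 (without 6-week-old mouse 1) and 0.33 (without 6-week-old mouse 3).

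Bbc3 encodes PUMA, a BH3-only protein that starts apoptosis at the mitochondrion. For Bbc3, the log2 intensity was 4.40, 4.01, 4.60 and 4.24 in diabetic mice, 4.53, 4.49 and 4.59 in nondiabetic 21-week-old mice, and 4.83, 4.49 and 4.57 in 6-week-old mice. The groups overlapped, and the diabetic mice spread more widely (SD 0.25) than the nondiabetic mice of the same age (SD 0.05). Diabetic mice differed by -0.23 ± 0.15 (SE) from nondiabetic 21-week-old mice and by -0.32 ± 0.15 (SE) from 6-week-old mice, with adjusted p-values of 0.485 and 0.338 (limma). The first of these was -0.12 without diabetic mouse 2 (adjusted p = 0.745), and the second was -0.22 without 6-week-old mouse 1 or without diabetic mouse 2. Nondiabetic mice of 21 and 6 weeks differed by -0.09 ± 0.16 (SE, adjusted p = 0.915, limma). With Bax not analysed, Bbc3 was the apoptosis gene of the list that could be read.

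Trp53inp1 encodes a nuclear stress protein that is induced by p53 and takes part in cell death and autophagy. Trp53inp1 had log2 intensities of 6.29, 6.51, 6.79 and 7.73 in diabetic mice, 5.63, 6.20 and 5.80 in nondiabetic 21-week-old mice, and 6.31, 6.01 and 5.99 in 6-week-old mice. Diabetic mice lay above nondiabetic mice of the same age by a gap of 0.09 and overlapped with the 6-week-old mice. As a percentile of all probe sets of the array, nondiabetic 21-week-old mouse 2 (90.9) lay just above diabetic mouse 1 (90.8). The difference at 21 weeks, 0.95 ± 0.28 (SE) or 1.93-fold, was the greatest of the 8 genes, with an interval of 0.35 to 1.55 and an adjusted p of 0.121 (limma). It was 0.65 without diabetic mouse 4. Against 6-week-old mice the diabetic mice differed by 0.73 ± 0.28 (SE, adjusted p = 0.239, limma), or by 0.42 without mouse 4, and the nondiabetic mice of 21 weeks differed from those of 6 weeks by -0.23 ± 0.30 (SE, adjusted p = 0.883, limma).

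The Gadd45 proteins are small stress sensors that bind p21, PCNA and the kinase MAP3K4. Gadd45b had log2 intensities of 5.77, 5.69, 5.73 and 7.11 in diabetic mice, 5.50, 5.45 and 5.55 in nondiabetic 21-week-old mice, and 5.26, 4.94 and 5.38 in 6-week-old mice. No 2 groups overlapped in log2 intensity: the diabetic mice were above the nondiabetic mice of their age by a gap of 0.13, and these above the 6-week-old mice by 0.07. As a percentile of all probe sets of the array, nondiabetic 21-week-old mouse 3 (86.8) lay above diabetic mice 1, 2 and 3 (85.1 to 86.3). Diabetic mice differed from nondiabetic mice at 21 weeks by 0.57 ± 0.29 (SE, adjusted p = 0.351, limma) and from 6-week-old mice by 0.88 ± 0.29 (SE, adjusted p = 0.164, limma), or 1.84-fold, with an interval of 0.26 to 1.5. Without diabetic mouse 4 these differences were 0.23 (adjusted p = 0.418) and 0.54 (adjusted p = 0.0815). The difference between nondiabetic mice of 21 and 6 weeks was 0.31 ± 0.31 (SE, adjusted p = 0.84, limma).

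Gadd45g, the paralog with the same pair of motifs in its window, had log2 intensities of 6.59, 6.20, 6.33 and 6.81 in diabetic mice, 5.80, 6.22 and 5.69 in nondiabetic 21-week-old mice, and 6.08, 6.05 and 6.43 in 6-week-old mice. Diabetic mouse 2, at 6.20, lay just below nondiabetic 21-week-old mouse 2, at 6.22, so these groups overlapped by a single pair. The difference at 21 weeks was 0.58 ± 0.18 (SE), or 1.5-fold, with an interval of 0.19 to 0.97 and an adjusted p of 0.14 (limma). It was 0.47 without diabetic mouse 4. Diabetic mice differed from 6-week-old mice by 0.30 ± 0.18 (SE, adjusted p = 0.474, limma), and the nondiabetic groups differed by -0.28 ± 0.19 (SE, adjusted p = 0.759, limma).

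Sesn2 encodes sestrin 2, which restrains mTORC1 when leucine is scarce or cells are stressed. Its log2 intensity was 4.46, 4.27, 4.62 and 3.99 in diabetic mice, 3.52, 4.78 and 4.40 in nondiabetic 21-week-old mice, and 4.24, 4.35 and 4.73 in 6-week-old mice. The 3 groups overlapped, and the nondiabetic 21-week-old mice held both the lowest and the highest of the 10 values. The difference between diabetic and nondiabetic mice at 21 weeks was 0.10 ± 0.26 (SE), with an interval of -0.45 to 0.66 (adjusted p = 0.88, limma). The adjusted p was 0.884 between the nondiabetic groups, which differed by -0.21 ± 0.27 (SE), and 0.895 between diabetic and 6-week-old mice, which differed by -0.10 ± 0.26 (SE, limma).

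**Figure D2:**
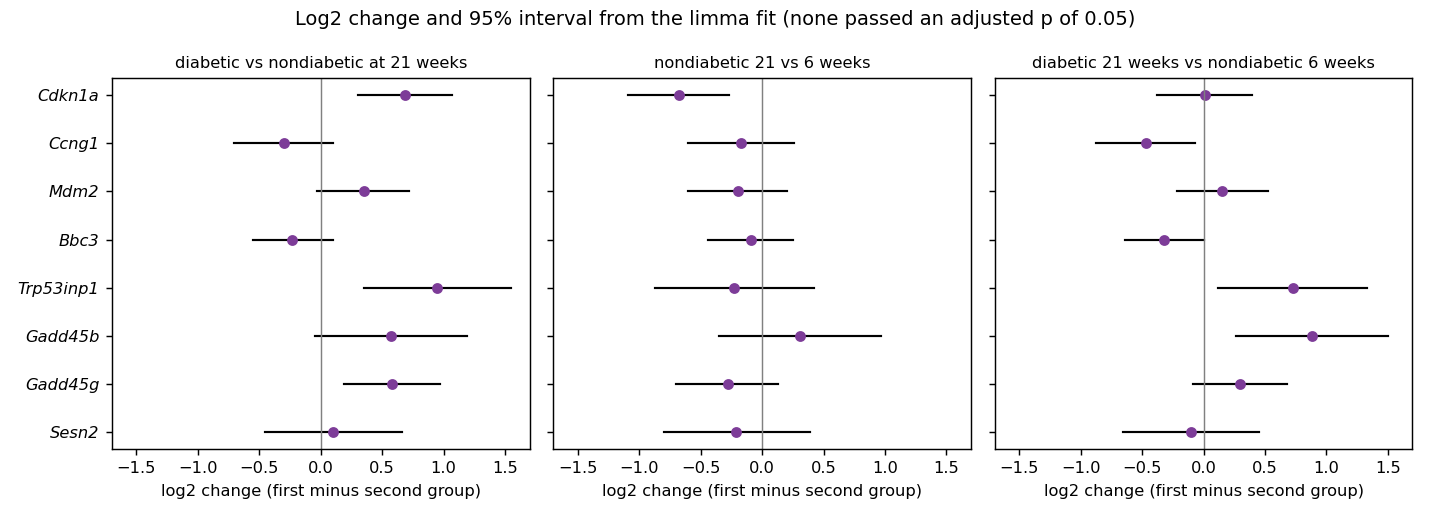
Log2 change (horizontal axis, first minus second group) of each of the 8 measured genes with its 95% interval from the limma fit, 1 panel per comparison. No gene passed an adjusted p of 0.05, and the intervals of Cdkn1a, Trp53inp1 and Gadd45g lie above 0 in the diabetes comparison at 21 weeks.

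In the age comparison, 0 of 8 genes passed in limma's test, against 0.0266% of all genes (0.00531% higher and 0.0212% lower), and 1 of 8, Cdkn1a, had an unadjusted p under 0.05, against 7.47% of all genes. The nondiabetic groups did not overlap for 2 of 8 genes (13.8% of all genes), with Cdkn1a lower (9.73% of all genes) and Gadd45b higher (4.11%) at 21 weeks. Of the 8 genes, 1 had a higher mean at 21 weeks, against 38.2% of all genes, and the median difference was -0.20 against -0.06 over all genes. Between diabetic 21-week-old and nondiabetic 6-week-old mice, which differ in both disease and age, 0 of 8 passed in limma's test (1.44% of all genes, 0.903% higher and 0.542% lower) and 3 of 8, Gadd45b, Trp53inp1 and Ccng1, had an unadjusted p under 0.05 (14.9% of all genes). The groups did not overlap for 2 of 8 genes (16.7% of all genes), with Gadd45b higher (8.2%) and Ccng1 lower (8.49%), and the median difference was 0.08 against -0.02 over all genes. Each pair of these comparisons shares a group, so their values are not independent of each other.

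Across the 10 arrays, which share the 3 groups and so any difference between them, some of the genes varied together. Pearson's r was -0.91 for Ccng1 with Gadd45b, -0.85 for Ccng1 with Trp53inp1 and 0.84 for Trp53inp1 with Gadd45b. Over the 9 arrays without diabetic mouse 4, these were -0.57, -0.45 and 0.40. Cdkn1a and Gadd45g varied together with r = 0.80, and 0.71 without that array, and Cdkn1a and Mdm2 with r = 0.56, and 0.64 without it. Once the group means were removed, r was -0.84 for Ccng1 with Gadd45b, 0.72 for Cdkn1a with Gadd45g and 0.29 for Cdkn1a with Mdm2. These values include diabetic mouse 4, the lowest of its group for Ccng1 and the highest for Cdkn1a, Gadd45b and Gadd45g.

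The genes also varied with markers of cell types. With the mean of the 7 T cell markers, r was -0.91 for Ccng1, 0.86 for Gadd45b, 0.66 for Trp53inp1 and 0.19 for Cdkn1a over the 10 arrays. Without diabetic mouse 4 these were -0.78, 0.63, 0.08 and -0.42. With the tubule markers, r was -0.88 for Trp53inp1, -0.81 for Gadd45g and -0.76 for Cdkn1a, and -0.85, -0.69 and -0.63 without that array. Cdkn1a had r = 0.72 with the fibroblast markers (0.79 without that array). Trp53inp1 had r = 0.89 with the plasma cell markers (0.65 without it) and 0.69 with the macrophage markers (0.88 without it). Gadd45b had r = 0.93 with the B cell markers (0.71 without it) and -0.86 with Aqp5 and Bhlha15 (-0.27 without it). These coefficients were picked from all pairs of gene and marker list, and they include the differences between the groups. The part of these markers in the differences of the genes was not tested.

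**Figure D3:**
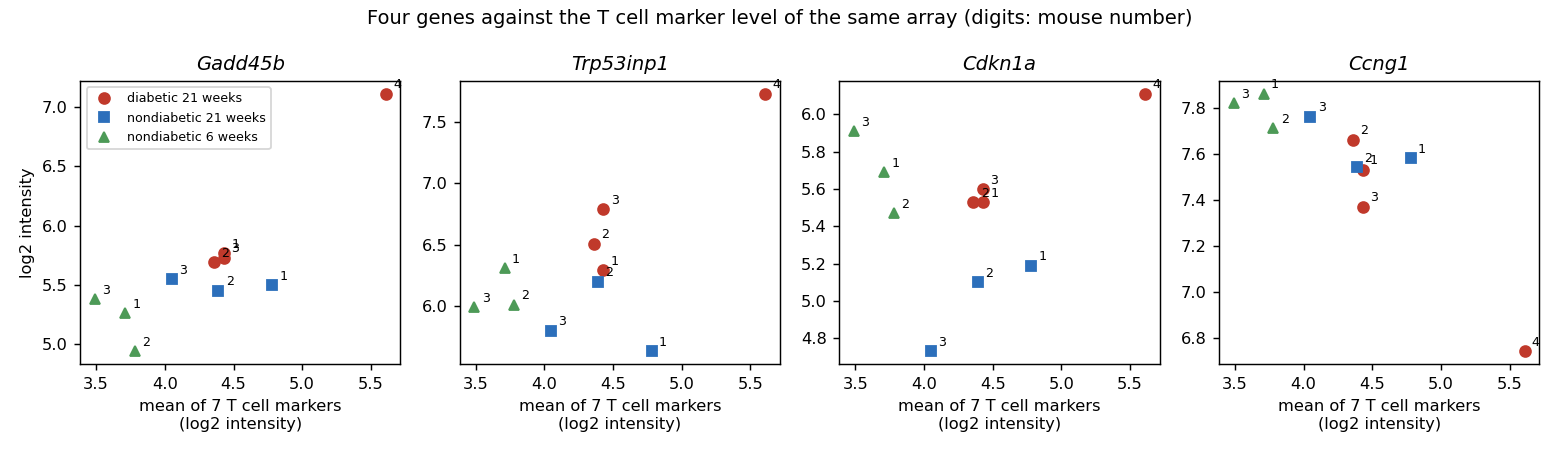
Log2 intensity of 4 of the genes (vertical axis) against the mean log2 intensity of 7 T cell markers on the same array (horizontal axis), coloured by group; digits are mouse numbers. Diabetic mouse 4, at a marker mean of 5.61, lies far to the right of the other 9 arrays, at 3.49 to 4.78.

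Among all 18826 genes, those with the highest r to each gene over the 10 arrays were listed as a description. Over so many genes and so few arrays, high coefficients can be found for any gene. Cdkn1a was followed most closely by Abcc9 (r = 0.954), a subunit of a potassium channel, and by Mertk (r = 0.945), a receptor for the uptake of apoptotic cells. For Trp53inp1 these were Gps2 (r = 0.976) and Frmd6 (r = 0.972), and for Gadd45b Tubb5 (r = 0.973), a tubulin, and C2cd5 (r = 0.972). Ccng1 was closest to Sntb1 (r = 0.98) and Sdhc (r = 0.977), a subunit of succinate dehydrogenase. Without diabetic mouse 4, Tubb5 with Gadd45b had r = 0.862 and Sntb1 with Ccng1 had r = 0.909. Mdm2 was closest to Ppat (r = 0.953) and Hbq1b (r = 0.952), Bbc3 to Kcnj4 (r = 0.946) and Sycn (r = 0.916), Gadd45g to Mss51 (r = 0.944) and Med14 (r = 0.94), and Sesn2 to Gm4371 (r = 0.924) and G3bp1 (r = 0.878).

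Further genes of the pathway were read from lists chosen by function, with earlier results of these data known. Of 27 measured other p53 targets, 1 rose between diabetic and nondiabetic mice at 21 weeks and none fell, against 1.10% of all genes that rose and 0.34% that fell. It was Btg2, an antiproliferative gene of the immediate-early class, with log2 intensities of 8.42, 8.24, 8.49 and 8.91 in diabetic mice, 7.17, 7.71 and 7.57 in nondiabetic 21-week-old mice, and 7.85, 7.43 and 7.57 in 6-week-old mice. Every diabetic mouse lay above every other mouse, as for 9.11% of all genes against nondiabetic 21-week-old mice and 8.2% against 6-week-old mice. The difference was 1.03 ± 0.18 (SE), or 2.05-fold, with an adjusted p of 0.0155 (limma), and 0.0533 without nondiabetic mouse 3. Against 6-week-old mice it was 0.90 ± 0.18 (SE, adjusted p = 0.0327, limma), and the adjusted p was 0.0503 without diabetic mouse 4. In that comparison 1 of the 27 genes passed (1.44% of all genes), against 0 without diabetic mouse 4 and 2 without nondiabetic 21-week-old mouse 3. The median difference of the 27 genes at 21 weeks was 0.06, against 0.03 over all genes, and 4 had an unadjusted p under 0.05 (15.8% of all genes). In the age comparison none of the 27 passed in limma's test, and 2 had an unadjusted p under 0.05 (7.47% of all genes). The gene with the smallest p was Aen, a nuclease of p53-dependent apoptosis, at -0.43 ± 0.19 (SE, adjusted p = 0.643, limma).

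Upstream of p53, 0 of 17 measured regulators and DNA damage signalling genes passed in limma's test in any comparison, with 6, 0 and 6 at an unadjusted p under 0.05 in the diabetes, age and diabetic against 6-week comparisons, against 15.8%, 7.47% and 14.9% of all genes. Trp53 itself was not analysed here. Mdm4, the other main inhibitor of p53, had log2 intensities of 5.88, 6.01, 6.16 and 6.31 in diabetic mice, 5.80, 5.47 and 5.67 in nondiabetic 21-week-old mice, and 5.46, 5.56 and 5.73 in 6-week-old mice. Every diabetic mouse lay above every nondiabetic mouse, as for 9.11% of all genes against nondiabetic 21-week-old mice and 8.2% against 6-week-old mice. The difference was 0.44 ± 0.14 (SE, adjusted p = 0.152) from nondiabetic 21-week-old mice and 0.51 ± 0.14 (SE, adjusted p = 0.0995) from 6-week-old mice, and 0.07 between the nondiabetic groups (adjusted p = 0.944, limma). Without diabetic mouse 4 the first of these was 0.37 and the second 0.44, and without nondiabetic mouse 3 the first was 0.46. The smallest p of the list at 21 weeks belonged to Ep300, a histone acetyltransferase that also acetylates p53, at 0.58 ± 0.16 (SE, adjusted p = 0.109, limma), and in the age comparison to Trp53bp1, at -0.35 ± 0.18 (SE, adjusted p = 0.691, limma).

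Lists for cell cycle and apoptosis held no gene past the threshold in limma's test in any comparison. At 21 weeks an unadjusted p under 0.05 was found for 1 of 6 CDK inhibitors, 2 of 13 genes of the Bcl2 family and 1 of 21 proliferation genes, against 15.8% of all genes. The smallest p belonged to Cdkn1b, which encodes p27, at 0.45 ± 0.17 (SE, adjusted p = 0.223), to Mcl1, an antiapoptotic gene, at 0.55 ± 0.12 (SE, adjusted p = 0.0502), and to Mcm4, a subunit of the replicative helicase, at 0.58 ± 0.17 (SE, adjusted p = 0.111, limma). The corresponding genes in the age comparison were Cdkn2b at -0.26 (adjusted p = 0.803), Bad at -0.34 (adjusted p = 0.643) and Mcm2 at 0.37 (adjusted p = 0.635), with 0, 1 and 1 of the genes at an unadjusted p under 0.05 (7.47% of all genes). Between diabetic and 6-week-old mice, they were Cdkn1b at 0.35 (adjusted p = 0.362), Mcl1 at 0.38 (adjusted p = 0.161) and Pcna, the DNA polymerase clamp, at 0.58 (adjusted p = 0.0892), with 0, 3 and 3 genes at an unadjusted p under 0.05 (14.9% of all genes). The mean over the proliferation genes was 4.55 in diabetic mouse 4 and 3.83 to 4.07 on the other 9 arrays.

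Other lists held genes chosen by function as responders to inputs known to act on Cdkn1a, the Gadd45 genes or Sesn2 without p53. Whether those inputs acted on the p53 target and growth arrest genes here was not tested. The part of the enzymatic dissociation of the glands in the values that follow was not tested either. Between diabetic and nondiabetic mice at 21 weeks, 12 of 22 immediate-early genes rose, with a median difference of 0.84, and so did 7 of 13 glucocorticoid targets, with a median of 0.78. Of all genes, 1.10% rose. Among the immediate-early genes were Atf3, a stress-induced transcription factor, at 1.39 ± 0.16 (SE, 2.63-fold, adjusted p = 0.000874), Klf6 at 1.27 ± 0.15 (SE, adjusted p = 0.000987), Klf4 at 1.16 ± 0.14 (SE, adjusted p = 0.00175) and Zfp36 at 1.41 ± 0.18 (SE, adjusted p = 0.00193, limma). The glucocorticoid targets with the smallest p were Pdk4, a mitochondrial kinase that restrains glucose oxidation, at 2.15 ± 0.22 (SE, 4.44-fold, adjusted p = 0.000519), Lcn2 at 1.62 ± 0.17 (SE, adjusted p = 0.000608), the clock gene Per1 at 1.92 ± 0.26 (SE, adjusted p = 0.00382) and the phosphatase Dusp1 at 1.05 ± 0.15 (SE, adjusted p = 0.00414, limma). Dusp1 stands in both lists. The array means of the 2 lists did not overlap between diabetic and nondiabetic mice at 21 weeks: 6.80 to 7.33 in diabetic mice, against 5.95 to 6.25 in nondiabetic 21-week-old mice for the immediate-early genes, and 6.47 to 6.98 against 5.61 to 5.90 for the glucocorticoid targets. The same held for the p53 regulators (5.12 to 5.25 against 4.89 to 5.07). For the other p53 targets the ranges lay close together (4.92 to 5.04 against 4.68 to 4.90). Of these genes, 0 of 17 regulators and 1 of 27 other targets passed at 21 weeks, against 1.44% of all genes. Their median differences were 0.19 and 0.06, against 0.03 over all genes. In 6-week-old mice the array means were 4.94 to 5.10 and 4.83 to 4.93. The array means of the integrated stress response genes did not overlap either (6.26 to 6.48 against 5.86 to 6.14). For these genes the 6-week-old mice, at 6.26 to 6.38, overlapped with the diabetic mice. The 6-week-old mice lay below all diabetic mice for the immediate-early genes (6.02 to 6.32) and the glucocorticoid targets (5.86 to 6.22). Between diabetic and nondiabetic mice at 21 weeks, the array means of the CDK inhibitors, Bcl2 family, proliferation genes and FoxO targets overlapped. Of the glucocorticoid targets, 4 passed without nondiabetic mouse 3, and of the immediate-early genes 10 to 12 passed when that array, diabetic mouse 4 or both were left out.

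Of 14 integrated stress response genes, the pathway that also induces Sesn2, 2 rose at 21 weeks (1.10% of all genes): Atf3, which is shared with the immediate-early list, and Ppp1r15a, a phosphatase subunit also known as Gadd34, at 0.93 ± 0.20 (SE, adjusted p = 0.0388, limma). The adjusted p of Ppp1r15a was 0.149 without nondiabetic mouse 3 and 0.0679 without diabetic mouse 4. Of 17 FoxO targets 1 rose (1.10% of all genes), Irs2, the insulin receptor substrate, at 1.21 ± 0.20 (SE, 2.31-fold, adjusted p = 0.0106, limma), and at 0.92 without nondiabetic mouse 3 (adjusted p = 0.02). None of the genes in these 4 lists passed in the age comparison in limma's test, where 1 immediate-early gene, 3 glucocorticoid targets, 6 integrated stress response genes and 3 FoxO targets had an unadjusted p under 0.05 (7.47% of all genes). Those with the smallest p were Myc at -0.45 (adjusted p = 0.635), Pdk4 at -1.10 (adjusted p = 0.307), Mthfd2 at -0.82 (adjusted p = 0.16) and Bcl6 at -0.55 (adjusted p = 0.572). Between diabetic and 6-week-old mice, 12 immediate-early genes, 7 glucocorticoid targets and 1 integrated stress response gene, Atf3 at 1.49 ± 0.16 (SE, adjusted p = 0.00137, limma), rose, against 0.903% of all genes. The next immediate-early genes by p were Zfp36 at 1.45, Klf6 at 1.18 and Ier2 at 0.98, and the glucocorticoid targets were led by Lcn2 at 1.28, Dusp1 at 1.01, Mt2 at 0.99 and Mt1 at 0.90. Without diabetic mouse 4, 2 glucocorticoid targets passed in that comparison. Of the FoxO targets none passed there in limma's test, while 8 had an unadjusted p under 0.05 (14.9% of all genes). Gabarapl1 was at -0.53 (adjusted p = 0.0564, limma), and 2 FoxO targets passed without nondiabetic mouse 3.

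**Figure D4:**
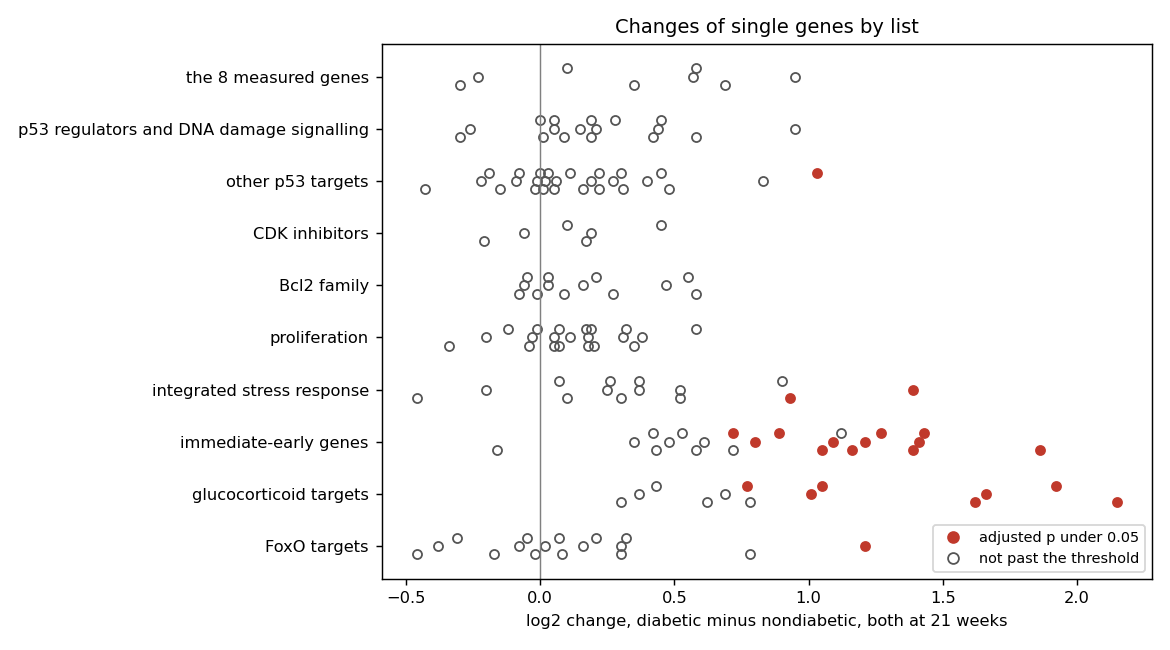
Log2 change between diabetic and nondiabetic mice at 21 weeks (horizontal axis) of each measured gene in the p53 target set and in 9 further lists (rows), with filled points for genes past an adjusted p of 0.05. None of the 8 p53 target and growth arrest genes is filled, against 12 of 22 immediate-early genes and 7 of 13 glucocorticoid targets. The lists were chosen with earlier results of these data known, so the contrast is a description, and its cause was not tested.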

How the data were processed

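Biotin-labelled cDNA of 10 mice was hybridised to Affymetrix arrays, 1 array per mouse. The authors deposited log2 intensities for each probe set, which per the submitters' processing notes came from RMA and Affymetrix Power Tools; versions and settings are not stated there. RMA gives every array the same distribution of intensities before probes are summarised, and it compresses differences of dim probe sets. Arrays have no read depth, and precision is limited by how many there are.

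Of 41345 probe sets, the gene table gave a single symbol to 23521, several symbols to 1814 and no name to 16010. Single-symbol probe sets above the 25th percentile of the array on 3 or more arrays were retained, and the brightest was used per gene, leaving 18826 genes. Comparison with a mouse RefSeq annotation (GRCm38.p6) by gene identifier changed 0 symbols. One fit with a mean for each group covered the 10 arrays, in limma 3.58.1 under R 4.3.3 (7 residual and 5.61 prior degrees of freedom). Tests were two-sided, Benjamini-Hochberg adjustment ran over all genes of a comparison, and the threshold was 0.05. p-values measure the spread between numbered mice; no batch is labelled.

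The genes, the lists and the rule for the genes named (all 10, and per list and comparison up to 4 past the threshold or, with none, the smallest p, with the 2 most correlated genes of each) were chosen with earlier results of these data known. On simulated data, a log2 change of 1 was recovered for 79% of genes in the diabetes comparison and 78% in the age comparison. Between diabetic and 6-week-old mice it was 81%. The simulations gave 190, 182 and 187 calls in these comparisons, against 271, 5 and 272 genes in the data. The adjusted p depends on how many genes change, so the 78% cannot be carried over to the age comparison. The shares are averages over genes and do not apply to a single gene. Alternatives covered the filter, the scaling, the fit, the threshold and each array in turn.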

Additional observations from a re-analysis of the deposited data

Results flagged for a closer look

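Within the diabetic group, the array of mouse 4 stood apart from the other 3 for 2 of the 8 genes. For Cdkn1a its log2 intensity of 6.11 was separated from the next by 0.883 of the whole range of the group, and for Gadd45b its 7.11 was separated by 0.945, both above Dixon's 95% critical value for 4 samples. Chance gives about 1 such result in 20 groups, and 8 were examined, all on the same 4 arrays. The same array had the highest T cell and B cell marker means of the 10 (5.61 and 5.73).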

How the results depend on the processing

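Under 22 alternatives, 10 of which left out 1 array each, 0 of the 8 genes passed in any comparison. Of 528 alternative differences, 515 kept their sign and 13 turned, none of them past the threshold. The lowest adjusted p was 0.0557, for Cdkn1a between diabetic and nondiabetic mice at 21 weeks, with a range up to 0.265; for Gadd45b between diabetic and 6-week-old mice the lowest was 0.0571.

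The turned signs belonged to small differences. For Cdkn1a between diabetic and 6-week-old mice, the value was -0.06 with array weights, -0.05 with quantile normalization, -0.13 with the replicate number as a block, and -0.13 to 0.12 when 1 array was left out (-0.13 without diabetic mouse 4, -0.10 without 6-week-old mouse 2); it was -0.13 without both arrays that stood apart. For Sesn2 in the same comparison it was 0.01 with the replicate block, 0.01 without both arrays, and -0.20 to 0.04 when 1 array was left out (0.01 without diabetic mouse 4, 0.04 without 6-week-old mouse 3). With 1 array left out, Sesn2 was at -0.25 to 0.38 between diabetic and nondiabetic mice at 21 weeks and at -0.48 to 0.15 in the age comparison, with the turned signs in both coming without nondiabetic 21-week-old mouse 1. Bbc3 was at -0.16 to 0.01 in the age comparison, with the turned sign without 6-week-old mouse 1. The causes were not tested.

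Over all genes, the 271 past the threshold at 21 weeks became 84 to 268 when 1 array was left out (84 without nondiabetic mouse 3, 95 without diabetic mouse 3), 161 with only the groups compared and 69 at an adjusted p under 0.01. The 272 between diabetic and 6-week-old mice became 48 to 393 (48 without 6-week-old mouse 3), and 672 with array weights. The 5 of the age comparison became 1 to 10, with 0 when only the groups compared were fitted and 39 without both arrays that stood apart, an alternative chosen after seeing the data. Replicate numbers are shared by the groups, but deviations of same-numbered arrays correlated at only -0.12 to 0.07, so the numbers were not taken as pairs; with the replicate block 0 of the 8 genes passed and 204 genes did at 21 weeks.

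The standard errors of the 8 genes, 0.15 to 0.31 with 3 or 4 arrays per group, limit what could be detected, and a value that missed the threshold does not show equal expression.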
